A study of Mus musculus with 12 samples.

Results

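The genes described here encode 9 enzyme subunits, which apart from the cytosolic isoenzyme Mdh1 bring pyruvate into the mitochondrion's citric acid cycle and turn it. They are Pdha1 and Pdhb (pyruvate dehydrogenase), Cs (citrate synthase), Idh3a and Idh3g (NAD-dependent isocitrate dehydrogenase), Ogdh (2-oxoglutarate dehydrogenase), Fh1 (fumarase), and Mdh1 and Mdh2 (malate dehydrogenases). All probe sets whose platform annotation gives 1 of these symbols, or an older synonym of it, were taken. That gave 11 of the 12422 probe sets that are not array controls, and 9 of the 8251 genes that a probe set with 1 symbol names. Of the 11, 9 passed the filter on low values and were tested, 1 for each gene. The others were the second probe sets of Idh3a and Idh3g, whose highest signals over all arrays were 18.6 and 125.

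The cells were mouse embryonic fibroblasts of the DBA strain with the genotype KSR1-/-. KSR1 is a scaffold protein that brings together the kinases of the Raf, MEK and ERK cascade downstream of Ras, and H-RasV12 is a constitutively active, oncogenic form of H-Ras. Expression was measured on 12 Affymetrix arrays, 3 for each of 4 cell lines: one with KSR1, H-RasV12 and green fluorescent protein (GFP), one with H-RasV12 and GFP, one with KSR1 and GFP, and one with GFP alone. They are called here the KSR1 plus H-RasV12 line, the H-RasV12 line, the KSR1 line and the GFP line. Every line, the GFP line included, thus lacks the endogenous KSR1 gene product by genotype and carries GFP. Each condition is 1 cell line, and nothing in the labels says that the 3 arrays of a line came from separate cultures, so the p-values measure the spread between arrays, which may be technical.

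Pyruvate made by glycolysis is either reduced to lactate in the cytosol or enters the mitochondrion, where the pyruvate dehydrogenase complex turns it into acetyl-CoA. Citrate synthase joins acetyl-CoA to oxaloacetate, and the following enzymes of the cycle oxidise the product step by step, pass electrons to the respiratory chain and regenerate oxaloacetate. In fibroblasts, as in most proliferating cells, intermediates also leave the cycle for the synthesis of lipids and amino acids, and the pyruvate dehydrogenase kinases regulate entry by phosphorylating and inhibiting the E1 subunit that Pdha1 encodes.

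The deposited values are MAS5 signals on a linear scale, scaled so that the trimmed mean of each array lay between 500.25 and 500.32. Array medians lay between 160.6 and 216.5. Pearson's r between arrays was 0.911 to 0.965 within a line and 0.8075 to 0.956 between lines. As a check of the labels, the Ksr1 probe set with the wider range had signals of 301, 262 and 141 in the KSR1 plus H-RasV12 line, 20.2, 32.2 and 14.2 in the H-RasV12 line, 933, 1605 and 207 in the KSR1 line, and 144, 21.1 and 37.5 in the GFP line. The lines with KSR1 were thus the higher ones, except that the lowest KSR1 plus H-RasV12 array lay just under the highest GFP array. The other Ksr1 probe set overlapped between the KSR1 line and the GFP line. Differences were tested with limma on log2(signal + 23), with 4 group means and Benjamini-Hochberg adjustment over the 6897 probe sets that passed the filter. Calls were made where the adjusted p was under 0.05, and log2 fold changes are given with their standard error (SE). Of the fibroblast markers, 5 of 7 were tested, and the probe sets of Vim and Thy1 stayed below the filter on all 12 arrays.

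In the line that carried both KSR1 and H-RasV12, 7 of the 9 genes rose against each of the other 3 lines: Pdhb, Cs, Idh3a, Idh3g, Ogdh, Fh1 and Mdh2. Over all tested probe sets, 8.16% were called higher against the KSR1 line, 7.1% against the H-RasV12 line and 7.71% against the GFP line. The log2 fold changes of the 7 genes lay between 0.61 for Idh3g against the GFP line and 1.61 for Pdhb against the KSR1 line. Pdha1 had positive differences that did not pass the test, and the cytosolic isoenzyme Mdh1 had differences close to 0. For those 7 genes, all 3 arrays of the KSR1 plus H-RasV12 line lay above all 9 other arrays, an arrangement seen in 6.57% of the tested probe sets. Set against the GFP line, neither the H-RasV12 line nor the KSR1 line had a called difference for any of the 9 genes, in comparisons where 0.0725% and 11.8% of all probe sets were called.

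**Figure D1:**
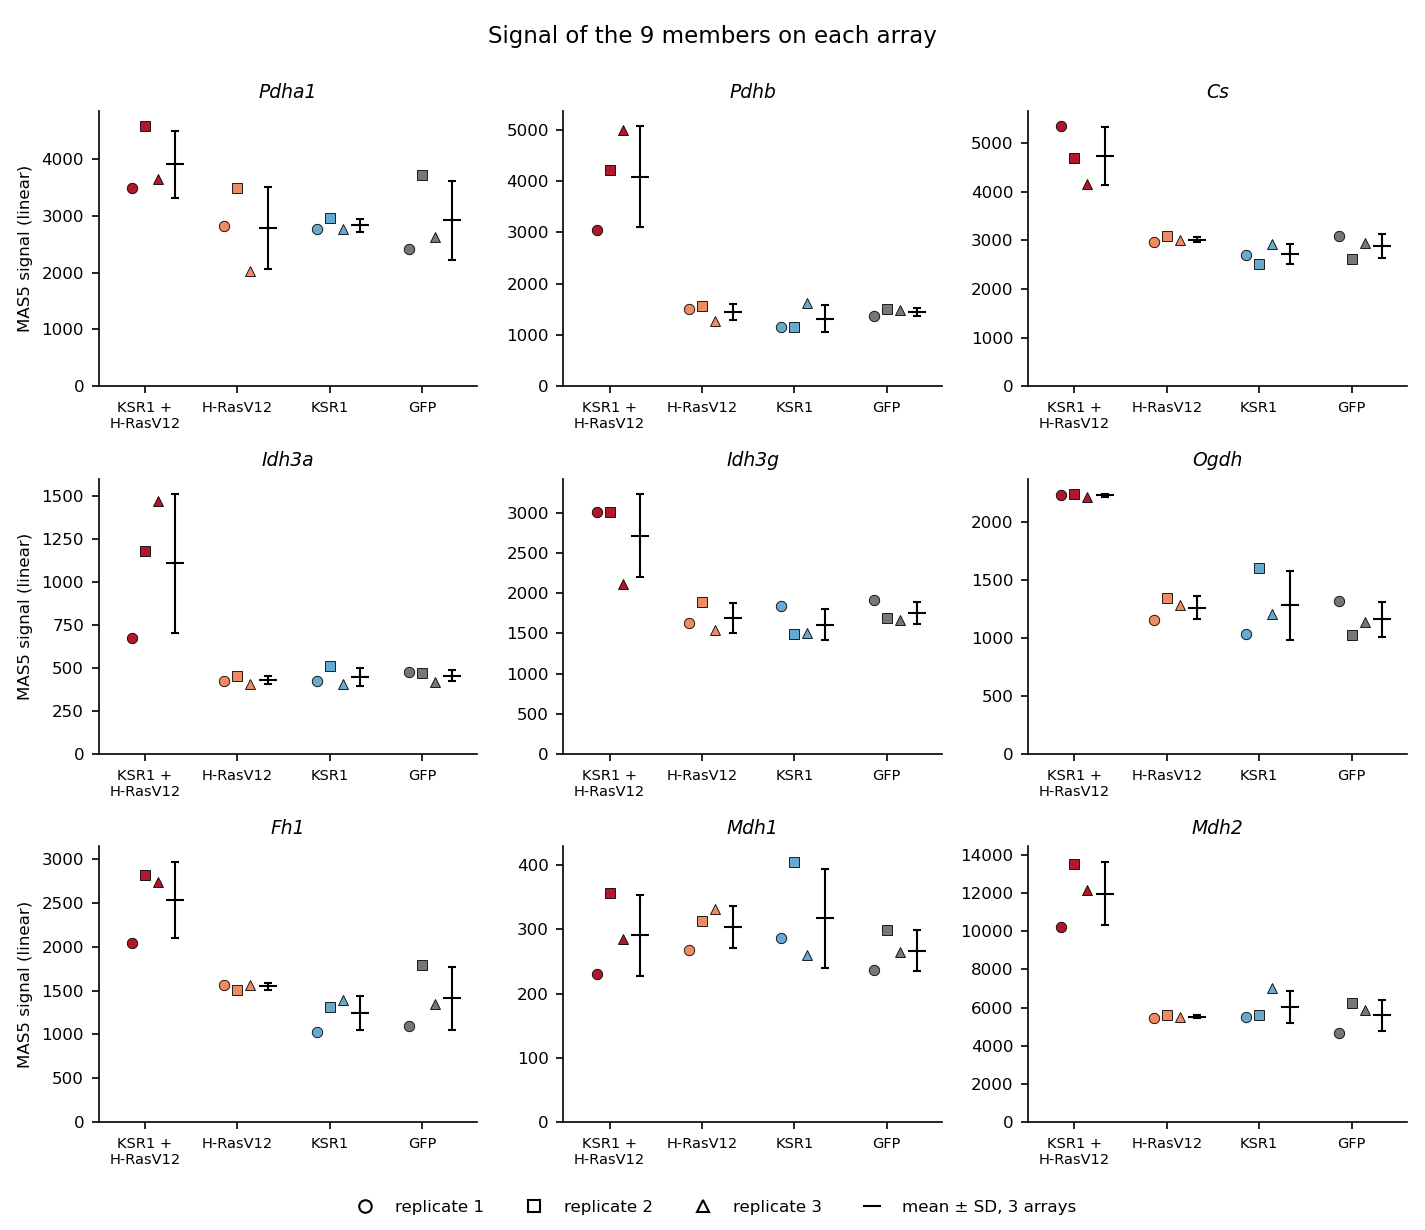
MAS5 signal (linear scale, from 0) of the 9 tested genes on each array, with the 3 arrays of each line as points and the mean ± SD beside them. The KSR1 plus H-RasV12 arrays stand above all 9 others in 7 panels, but not for Pdha1, where 1 GFP array reaches 3717, nor for Mdh1.

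The gene with the largest difference was Pdhb, which encodes the beta subunit of the E1 component of pyruvate dehydrogenase. Its signal was 3050.4, 4223 and 5004 in the KSR1 plus H-RasV12 line, 1497, 1564 and 1268 in the H-RasV12 line, 1159.7, 1160.4 and 1619 in the KSR1 line, and 1366, 1506 and 1482 in the GFP line. The lowest KSR1 plus H-RasV12 array was thus far above the highest array of any other line, while the H-RasV12, KSR1 and GFP arrays overlapped one another. Pdhb rose by 1.61 ± 0.20 (log2, SE) against the KSR1 line, a 3.06-fold difference (limma, adjusted p = 9.81e-05). The log2 fold change was 1.47 against the H-RasV12 line and 1.45 against the GFP line (limma, adjusted p = 0.000177 and 0.000171).

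Pdha1 encodes the alpha subunit of the same E1 component, the one that carries the regulatory phosphorylation sites. It had signals of 3497, 4580.0 and 3644 in the KSR1 plus H-RasV12 line, 2826, 3488 and 2036 in the H-RasV12 line, 2776, 2964 and 2763 in the KSR1 line, and 2413, 3717 and 2635 in the GFP line. All H-RasV12 and KSR1 arrays were below those of the KSR1 plus H-RasV12 line, by a narrow margin for the H-RasV12 line, and the GFP line overlapped it. The log2 fold change was 0.45 ± 0.22 (SE) against the KSR1 line, with a 95% interval of -0.015 to 0.92 and an adjusted p of 0.196 in limma. Against the H-RasV12 line it was 0.51 and against the GFP line 0.43 (limma, adjusted p = 0.144 and 0.227).

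On the same array, the difference between the log2 values of Pdhb and Pdha1 was -0.20, -0.12 and 0.45 in the KSR1 plus H-RasV12 line and -1.24, -1.34 and -0.76 in the KSR1 line. Signals of different probe sets are not on a common scale, so only the shift of this difference between lines is read. The shift was 1.16 against the KSR1 line, 0.96 against the H-RasV12 line and 1.02 against the GFP line, and the arrays did not overlap in any of these 3 comparisons. An exact two-sided permutation test gave p = 0.1 each time, the smallest p that 3 arrays against 3 allow (0.15 after Benjamini-Hochberg adjustment over 9 such comparisons). The measured difference was thus larger for the beta than for the alpha subunit, at a p that this design cannot bring below 0.1.

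The promoter windows of Pdhb, Mdh2 and Mdh1 are shown because Pdhb had the largest difference and the malate dehydrogenases are a pair of isoenzymes of which Mdh2 was called and Mdh1 was not. Each runs from 250 bases before to 50 bases after the transcription start in RefSeq (GRCm38.p6). All 3 are printed 5′ to 3′ on the gene's strand, with CCAAT, or its complement ATTGG, in capitals where it occurs. The Pdhb window is chr14:8172943-8173242 (minus strand), the Mdh2 window chr5:135778399-135778698 (plus strand) and the Mdh1 window chr11:21571885-21572184 (minus strand).
Pdhb: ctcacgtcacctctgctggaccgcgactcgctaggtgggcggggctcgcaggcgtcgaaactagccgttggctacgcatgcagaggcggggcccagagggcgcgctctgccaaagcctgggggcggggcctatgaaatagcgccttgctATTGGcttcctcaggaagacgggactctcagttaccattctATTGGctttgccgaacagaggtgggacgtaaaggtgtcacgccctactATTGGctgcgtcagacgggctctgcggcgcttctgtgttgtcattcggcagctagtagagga
Mdh2: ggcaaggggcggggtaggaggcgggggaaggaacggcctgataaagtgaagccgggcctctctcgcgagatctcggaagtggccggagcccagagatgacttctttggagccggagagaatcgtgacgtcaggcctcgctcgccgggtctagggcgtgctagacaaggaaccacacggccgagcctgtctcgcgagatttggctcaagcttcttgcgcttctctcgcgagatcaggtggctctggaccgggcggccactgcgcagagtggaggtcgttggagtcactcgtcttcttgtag
Mdh1: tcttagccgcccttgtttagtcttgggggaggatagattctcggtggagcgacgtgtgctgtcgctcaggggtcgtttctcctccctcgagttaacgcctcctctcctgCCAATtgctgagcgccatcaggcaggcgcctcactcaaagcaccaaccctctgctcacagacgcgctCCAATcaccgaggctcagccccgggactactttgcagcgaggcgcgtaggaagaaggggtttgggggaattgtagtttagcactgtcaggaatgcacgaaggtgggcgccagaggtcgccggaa
The Pdhb window held 3 CCAAT boxes, all on the opposite strand, the Mdh1 window held 2, and the Mdh2 window held none.

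Windows were read for 8 of the 9 genes, all but Idh3a, with 13 windows in all because Ogdh has several start sites. Both strands were searched for 5 motifs. The response element of the estrogen-related receptors (TNAAGGTCA) was found in none of the 13 windows and in 1.28% of all 32851 RefSeq windows of this length. The consensus site of the nuclear respiratory factor NRF1 was found in none, and in 4.6% of all windows. The ETS family site (CCGGAAG) was found for 1 gene, Idh3g, in 1 of the 13 windows, and in 8.86% of all windows. The E-box (CACGTG) was found for 1 gene, Ogdh, in 3 of the 13 windows, and in 7.15% of all windows. CCAAT was found for 5 of the 8 genes (Pdhb, Cs, Ogdh, Fh1 and Mdh1), in 10 of the 13 windows, and in 37.4% of all windows. Several windows of Ogdh overlap and hold the same matches, so the 13 windows are not independent of one another. The median GC content of the 13 windows was 59.67%, against 52.67% over all windows, and the median number of CpG dinucleotides was 24, against 7. No match to 1 motif overlapped a match to another in these windows. A match describes the letters of a window and is not a measured binding site.

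Citrate synthase, encoded by Cs, carries out the first step of the cycle. Its signal was 5352, 4698 and 4154 in the KSR1 plus H-RasV12 line, 2972, 3083 and 2999.5 in the H-RasV12 line, 2709, 2506 and 2919.6 in the KSR1 line, and 3091, 2612 and 2951 in the GFP line. Of the 12 arrays, those 3 of the KSR1 plus H-RasV12 line were the highest, and the arrays of the KSR1 and GFP lines overlapped. Cs rose by 0.79 ± 0.16 (log2, SE) against the KSR1 line, 1.73-fold (limma, adjusted p = 0.00291). The log2 fold change was 0.64 against the H-RasV12 line and 0.71 against the GFP line (limma, adjusted p = 0.0120 and 0.00621).

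The NAD-dependent isocitrate dehydrogenase is built from catalytic alpha subunits, encoded by Idh3a, and beta and gamma subunits, of which Idh3g encodes the gamma. Idh3a had signals of 674, 1185 and 1470.0 in the KSR1 plus H-RasV12 line, 426, 455 and 408 in the H-RasV12 line, 428, 511 and 409 in the KSR1 line, and 478, 474 and 417 in the GFP line. The KSR1 plus H-RasV12 arrays were again the 3 highest, but they spread widely, with replicate 3 the highest and replicate 1 the lowest, and the other 3 lines overlapped. Idh3a rose by 1.20 ± 0.24 (log2, SE) against the KSR1 line, 2.29-fold (limma, adjusted p = 0.00284), by 1.25 against the H-RasV12 line (0.00198) and by 1.17 against the GFP line (0.00312).

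For Idh3g, the signals were 3017, 3012 and 2118 in the KSR1 plus H-RasV12 line, 1635, 1894 and 1541 in the H-RasV12 line, 1837, 1494 and 1499.8 in the KSR1 line, and 1910.4, 1690.5 and 1665 in the GFP line. Here the KSR1 plus H-RasV12 array nearest to the other lines was replicate 3, which still lay above all 9 of their arrays. Idh3g rose by 0.73 ± 0.18 (log2, SE) against the KSR1 line, 1.66-fold (limma, adjusted p = 0.0131). The log2 fold change was 0.66 against the H-RasV12 line and 0.61 against the GFP line (limma, adjusted p = 0.0230 and 0.0348). The difference against the GFP line was the smallest called one among the 9 genes. Leaving out 1 array at a time ended the call of Idh3g against the H-RasV12 line in 4 of 12 cases (H-RasV12 replicates 1 and 3, KSR1 plus H-RasV12 replicates 1 and 2; limma, adjusted p = 0.0611 to 0.0896). The same happened against the GFP line in 4 cases (GFP replicates 2 and 3, KSR1 plus H-RasV12 replicates 1 and 2; 0.0880 to 0.125) and against the KSR1 line in 2 (KSR1 replicate 2 and KSR1 plus H-RasV12 replicate 2; 0.0554 and 0.0594).

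The subunit pair of isocitrate dehydrogenase did not separate the lines. The log2 difference between Idh3a and Idh3g on the same array was -2.12, -1.33 and -0.52 in the KSR1 plus H-RasV12 line, against -2.05, -1.51 and -1.82 in the KSR1 line. The shift was 0.46 against the KSR1 line (exact two-sided permutation test, p = 0.5) and 0.59 and 0.57 against the H-RasV12 and GFP lines (exact p = 0.4 for both). The second probe set of Idh3a, below the filter on all arrays, had group means of 14.1 in the KSR1 plus H-RasV12 line, 2.22 in the H-RasV12 line, 7.20 in the KSR1 line and 7.27 in the GFP line. The second probe set of Idh3g had means of 62.6 in the KSR1 plus H-RasV12 line, 33.7 in the H-RasV12 line, 38.7 in the KSR1 line and 28.1 in the GFP line. Neither was called in any comparison of a fit without the filter (limma, adjusted p from 0.0529 upwards).

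Ogdh encodes the E1 component of the 2-oxoglutarate dehydrogenase complex, which makes succinyl-CoA. It had the tightest values of the group in the KSR1 plus H-RasV12 line, 2235, 2242 and 2219. The H-RasV12 arrays had 1154, 1344 and 1290.2, the KSR1 arrays 1033, 1610.1 and 1205, and the GFP arrays 1319, 1026 and 1141. The 3 KSR1 plus H-RasV12 arrays were above the rest, and the H-RasV12, KSR1 and GFP arrays overlapped. Ogdh rose by 0.81 ± 0.18 (log2, SE) against the KSR1 line, 1.76-fold (limma, adjusted p = 0.00700). The log2 fold change was 0.81 against the H-RasV12 line and 0.94 against the GFP line (limma, adjusted p = 0.00662 and 0.00247).

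Fumarase, encoded by Fh1, hydrates fumarate to malate. Fh1 signals were 2041, 2825 and 2746 in the KSR1 plus H-RasV12 line, 1568, 1507 and 1569 in the H-RasV12 line, 1025, 1315 and 1397 in the KSR1 line, and 1095, 1797 and 1345 in the GFP line. The KSR1 plus H-RasV12 arrays were the 3 highest, with GFP replicate 2 the closest of the others. The H-RasV12 arrays were above the KSR1 arrays, and the GFP arrays overlapped both. Fh1 rose by 1.01 ± 0.21 (log2, SE) against the KSR1 line, 2.01-fold (limma, adjusted p = 0.00365). The log2 fold change was 0.69 against the H-RasV12 line and 0.85 against the GFP line (limma, adjusted p = 0.0353 and 0.0106). The call against the H-RasV12 line was lost in 5 of 12 cases when 1 array was left out (any H-RasV12 array, KSR1 plus H-RasV12 replicates 2 and 3; limma, adjusted p = 0.0835 to 0.121), and that against the GFP line without GFP replicate 1 (0.0533).

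Malate dehydrogenase closes the cycle in the mitochondrion, where Mdh2 encodes it. Mdh1 encodes the cytosolic enzyme, which works in the malate-aspartate shuttle. Mdh2 had signals of 10218, 13511 and 12176 in the KSR1 plus H-RasV12 line, 5461, 5624 and 5494 in the H-RasV12 line, 5490.3, 5626 and 7008 in the KSR1 line, and 4683, 6238 and 5883 in the GFP line. All 9 other arrays lay far below and overlapped between their lines. Mdh2 rose by 0.98 ± 0.18 (log2, SE) against the KSR1 line, 1.98-fold (limma, adjusted p = 0.00137), by 1.10 against the H-RasV12 line (0.000543) and by 1.09 against the GFP line (0.000535).

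Mdh1 had 231, 357 and 286 in the KSR1 plus H-RasV12 line, 268, 313 and 332 in the H-RasV12 line, 287, 405 and 261 in the KSR1 line, and 237, 299.9 and 264 in the GFP line. The arrays of all 4 lines overlapped. Against the KSR1 line its log2 fold change was -0.11 ± 0.22 (SE), with a 95% interval of -0.59 to 0.37 (limma, adjusted p = 0.798). Against the H-RasV12 line it was -0.072 and against the GFP line 0.10 (limma, adjusted p = 0.892 and 0.844). The sign of the Mdh1 difference turned to positive against the KSR1 line with median centring (0.053) and with quantile normalization (0.019), as it did against the H-RasV12 line (0.023 and 0.0034).

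The isoenzymes were also set against each other on the same array. The log2 difference between Mdh2 and Mdh1 was 5.33, 5.16 and 5.31 in the KSR1 plus H-RasV12 line, 4.24, 4.07 and 3.96 in the H-RasV12 line, 4.15, 3.72 and 4.63 in the KSR1 line, and 4.18, 4.28 and 4.36 in the GFP line. No array of the other lines reached the lowest KSR1 plus H-RasV12 array. The shift was 1.09 against the KSR1 line, 1.17 against the H-RasV12 line and 0.99 against the GFP line (exact two-sided permutation test, p = 0.1 each, the smallest possible). A linear rescaling of an array leaves this difference as it is, apart from the pseudocount.

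**Figure D2:**
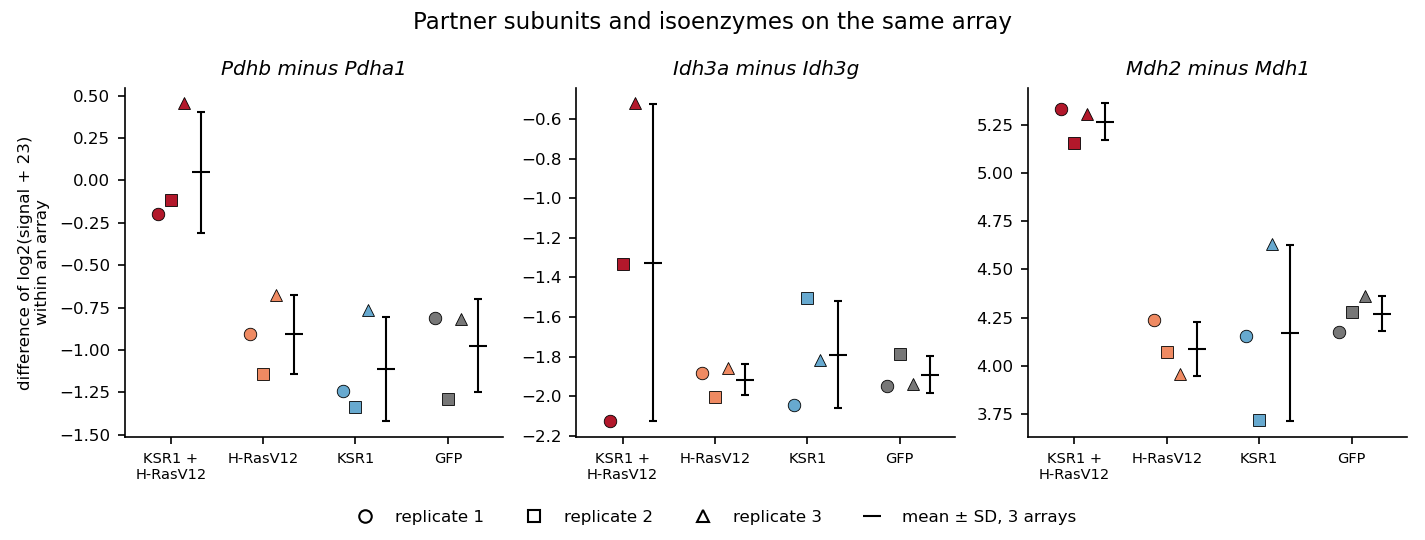
Difference of log2(signal + 23) on the same array between the E1 subunits (Pdhb minus Pdha1), the isocitrate dehydrogenase subunits (Idh3a minus Idh3g) and the malate dehydrogenases (Mdh2 minus Mdh1), 3 arrays per line with mean ± SD; the vertical axes do not start at 0. The KSR1 plus H-RasV12 arrays lie above all others for Pdhb minus Pdha1 and Mdh2 minus Mdh1 and overlap them for Idh3a minus Idh3g, where their values run from -2.12 to -0.52.

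Counted over the comparison of the KSR1 plus H-RasV12 line with the KSR1 line, which asks what H-RasV12 changes where KSR1 is present, 7 of the 9 genes were called higher and 0 lower. In that comparison 8.16% of all tested probe sets were called higher and 6.92% lower. The median log2 fold change of the 9 genes was 0.81, against -0.072 over all tested probe sets. Against the H-RasV12 line, which asks what KSR1 changes where H-RasV12 is present, again 7 were called higher and 0 lower, with 7.1% of all probe sets called higher and 7.71% lower, and medians of 0.69 for the 9 genes and -0.048 for all. Against the GFP line the count was 7 higher and 0 lower, with 7.71% of all probe sets called higher and 7.93% lower, and medians of 0.85 and -0.018. These 3 comparisons share the KSR1 plus H-RasV12 arrays, so their counts are not independent of one another.

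Neither transgene alone gave a called difference against the GFP line. In the H-RasV12 line the 9 log2 fold changes lay between -0.082 (Idh3a) and 0.17 (Mdh1), with 4 positive and 5 negative. None passed limma's adjusted threshold (adjusted p from 0.9998) and none had an unadjusted p under 0.05, in a comparison with 0.0725% of all probe sets called. In the KSR1 line the log2 fold changes lay between -0.16 (Fh1) and 0.21 (Mdh1), with 3 positive and 6 negative. None was called (limma, adjusted p from 0.613), and none had an unadjusted p under 0.05, while 11.8% of all probe sets were called. The 95% intervals of these 18 differences reached down to -0.60 (Fh1 in the KSR1 line) and up to 0.69 (Mdh1 in the KSR1 line), so changes within those bounds cannot be told from none with 3 arrays per line.

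Whether the difference between lines with and without H-RasV12 was the same with and without KSR1 was tested by the interaction. This is the log2 fold change of the KSR1 plus H-RasV12 line over the KSR1 line minus that of the H-RasV12 line over the GFP line. The interaction was called for 3 of the 9 genes, all positive, where 7.7% of all probe sets were called in either direction and 4.16% with a positive sign. Pdhb had 1.62 ± 0.29 (log2, SE; limma, adjusted p = 0.00302), Idh3a 1.28 ± 0.33 (0.0295) and Mdh2 0.99 ± 0.25 (0.0242). Cs (0.73), Idh3g (0.79), Fh1 (0.85), Ogdh (0.69) and Pdha1 (0.53) had positive values that did not pass the test (limma, adjusted p = 0.0622, 0.0812, 0.0985, 0.135 and 0.375), and Mdh1 had -0.29 (0.693). A fit with the replicate number as a block also called Cs, Idh3g and Fh1 (limma, adjusted p = 0.0440, 0.0445 and 0.0417), which made 6 of the 9 genes. Of the called genes, Pdhb kept its call whichever array was left out. Idh3a lost it in 10 of 12 cases, all but KSR1 replicate 2 and KSR1 plus H-RasV12 replicate 1 (limma, adjusted p = 0.0514 to 0.0739), and Mdh2 in 8 of 12, all but GFP replicate 1, KSR1 replicate 3 and KSR1 plus H-RasV12 replicates 1 and 3 (0.0503 to 0.0685). Without the filter on low values, Idh3a and Mdh2 lost it too (0.0543 and 0.0508).

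**Figure D3:**
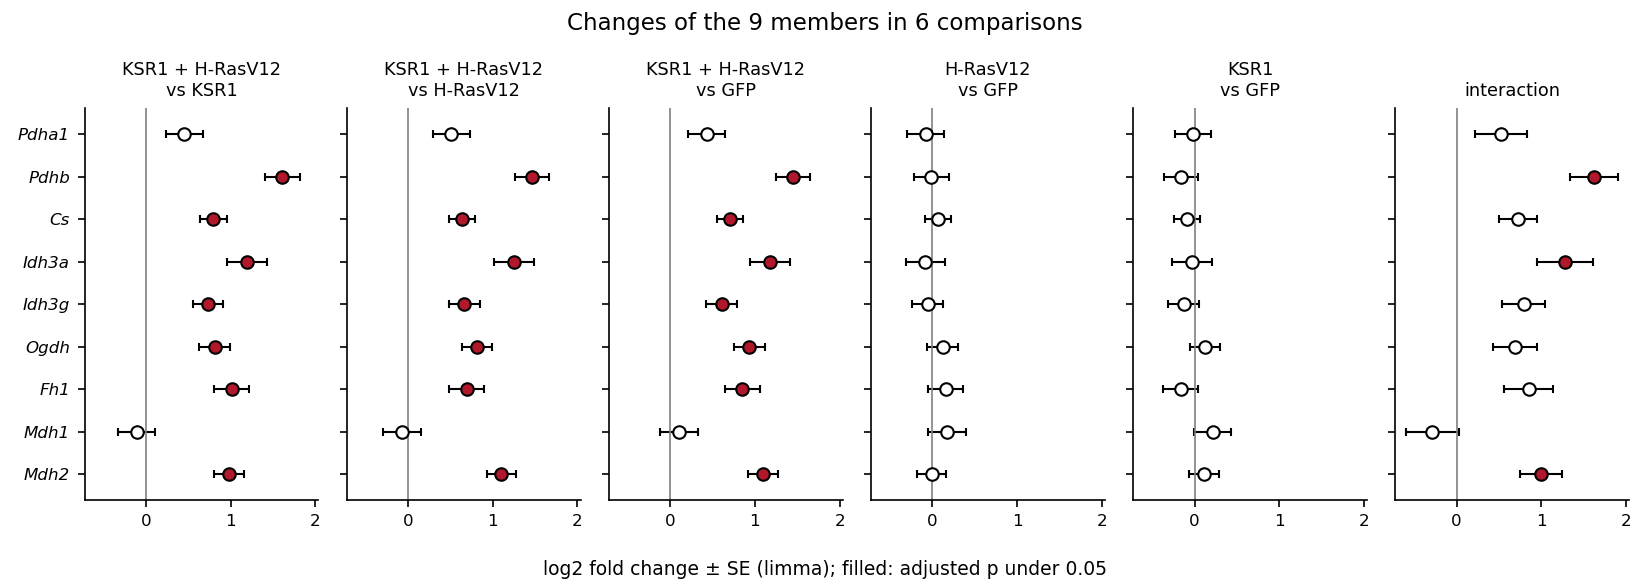
Log2 fold change ± SE (limma, on log2(signal + 23)) of the 9 genes in 5 comparisons between lines and in the interaction; filled points have an adjusted p under 0.05. In the 3 panels with the KSR1 plus H-RasV12 line 7 points are filled, from 0.61 to 1.61; in the H-RasV12 and KSR1 panels against the GFP line none is; in the interaction panel Pdhb, Idh3a and Mdh2 are.

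The genes differed in how their 3 KSR1 plus H-RasV12 arrays were ordered. Replicate 1 was the lowest of the 3 for Pdha1, Pdhb, Idh3a, Fh1, Mdh1 and Mdh2 and the highest for Cs and Idh3g. On the same array the control probe set for the 3' end of 18S rRNA had a signal of 146, the lowest of the 12, and that for the 3' end of beta-actin 8629, with only GFP replicate 1 lower (7981). The ratio of 3' to 5' signal for beta-actin was 1.61 on it, within the range of 1.07 to 1.77 over all arrays. The part of these array differences in the results was not tested. With replicates 2 and 3 of every line alone, the calls lost were Ogdh against the KSR1 line (limma, adjusted p = 0.0566), Cs and Idh3g against the H-RasV12 line (0.103 and 0.135) and Idh3g against the GFP line (0.115).

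Across the 12 arrays, the 28 pairs among the 8 genes other than Mdh1 had Pearson's r between 0.53 and 0.96, with a median of 0.77. Mdh1 had r between -0.25 and 0.20 with the others. After the mean of each line was removed, the median over the 28 pairs was -0.038, with a range of -0.79 (Cs with Idh3a) to 0.86 (Fh1 with Mdh2). The points of these correlations share arrays and their scaling.

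Of 43 other genes of pyruvate and citric acid cycle metabolism, 31 were named on the array by a probe set with 1 gene symbol and 25 passed the filter. Each was represented by its brightest tested probe set. In the KSR1 plus H-RasV12 line, 13 of the 25 rose and 1 fell against the KSR1 line, 12 rose and 2 fell against the H-RasV12 line, and 12 rose and 2 fell against the GFP line. Of all tested probe sets, 8.16%, 7.1% and 7.71% were called higher in these comparisons, and 6.92%, 7.71% and 7.93% lower. The median log2 fold changes of the 25 were 0.74, 0.57 and 0.65, against -0.072, -0.048 and -0.018 over all tested probe sets. In the H-RasV12 line none of the 25 was called against the GFP line (3 had an unadjusted p under 0.05 in limma), where 0.0725% of all probe sets were called. Against the GFP line, 1 of the 25 rose and 1 fell in the KSR1 line, where 11.8% of all probe sets were called. In the KSR1 line, Slc25a10, the mitochondrial dicarboxylate carrier, rose by 1.01 (log2; limma, adjusted p = 0.0279), a call that was lost without GFP replicate 2 or 3 or KSR1 replicate 2 (0.0873 to 0.139) and without the filter (0.0529). Pck2, the mitochondrial phosphoenolpyruvate carboxykinase, fell by 1.80 in the KSR1 line (limma, adjusted p = 0.000192), while its dimmer probe set had -0.55 and was not called (0.199). With the replicate number as a block, 14 of the 25 rose and 2 fell in the KSR1 plus H-RasV12 line against the KSR1 line, where the lactate dehydrogenase subunit gene Ldha (0.38, adjusted p = 0.0446 in limma) and Slc25a10 (-0.74, 0.0499) were added.

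Both other tested genes of the pyruvate dehydrogenase complex outside the 9, Dlat and Dld, rose; Pdhx, which encodes a further subunit, was not analysed here. Dlat, the E2 acetyltransferase, had 815, 1049.8 and 899 in the KSR1 plus H-RasV12 line, against 410.3, 356 and 516 in the KSR1 line, without overlap. Its log2 fold change was 1.08 ± 0.19 (SE) against the KSR1 line and 1.09 against the H-RasV12 line (limma, adjusted p = 0.00129 and 0.00114). Dld, the E3 dehydrogenase that the 2-oxoglutarate dehydrogenase complex also uses, rose by 0.89 and 0.90 in the same comparisons (0.00671 and 0.00596). A second Dlat probe set was below the filter on all 12 arrays.

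Among the enzymes of the cycle outside the 9, 6 of 8 rose against the KSR1 line, 5 against the H-RasV12 line and 6 against the GFP line. Of all tested probe sets, 8.16%, 7.1% and 7.71% were called higher in these comparisons. Sucla2 rose by 0.99 against the KSR1 line alone (limma, adjusted p = 0.0259), with overlapping arrays. Its call was lost in 4 of 12 cases when 1 array was left out (0.0828 to 0.111). Suclg2 rose by 0.69 against the GFP line alone (0.0168), a call lost in 3 of 12 such cases (0.0554 to 0.0862). The H-RasV12 and KSR1 arrays also lay above every GFP array for Suclg2. Their log2 fold changes were 0.50 and 0.26, not called (limma, adjusted p = 0.601 and 0.416), and the interaction was -0.069 (0.923). Idh3b was below the filter on all arrays. Succinate dehydrogenase, the complex that feeds electrons from succinate to the respiratory chain, had all 4 subunit genes called higher against the KSR1 line and the GFP line and 3 of 4 against the H-RasV12 line. Without KSR1 plus H-RasV12 replicate 2, the flavoprotein subunit gene Sdha was not called in any of the 3 comparisons (limma, adjusted p = 0.0522, 0.056 and 0.115 against the KSR1, H-RasV12 and GFP lines). Sdha also lost its call without H-RasV12 replicate 3 (0.0591) or GFP replicate 2 or 3 (0.0957 and 0.100) in the comparisons with those lines, and Sdhc lost its call against the GFP line without GFP replicate 1 or 2 or KSR1 plus H-RasV12 replicate 2 (0.0903, 0.0639 and 0.116). Its anchor subunit Sdhd had 5180.1, 6768 and 7108 in the KSR1 plus H-RasV12 line and 2434, 2367 and 2944 in the KSR1 line, and rose by 1.28 ± 0.18 (log2, SE; limma, adjusted p = 0.000186). The other anchor subunit, Sdhc, rose by 1.07 against the KSR1 line (0.00252) and had 0.54 against the H-RasV12 line (0.0995, not called). Suclg1, the alpha subunit of succinyl-CoA ligase, rose by 1.00 against the KSR1 line (limma, adjusted p = 0.000762). Dlst, the E2 component of the 2-oxoglutarate dehydrogenase complex, had 0.16 against the KSR1 line (0.604), and its 2 probe sets stood on different sides of the threshold against the H-RasV12 line (0.0402 and 0.0576) and the GFP line (0.0827 and 0.0291). The Dlst call against the H-RasV12 line was lost in 9 of 12 cases when 1 array was left out, all but GFP replicate 1, H-RasV12 replicate 2 and KSR1 replicate 3 (0.0504 to 0.162).

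**Figure D4:**
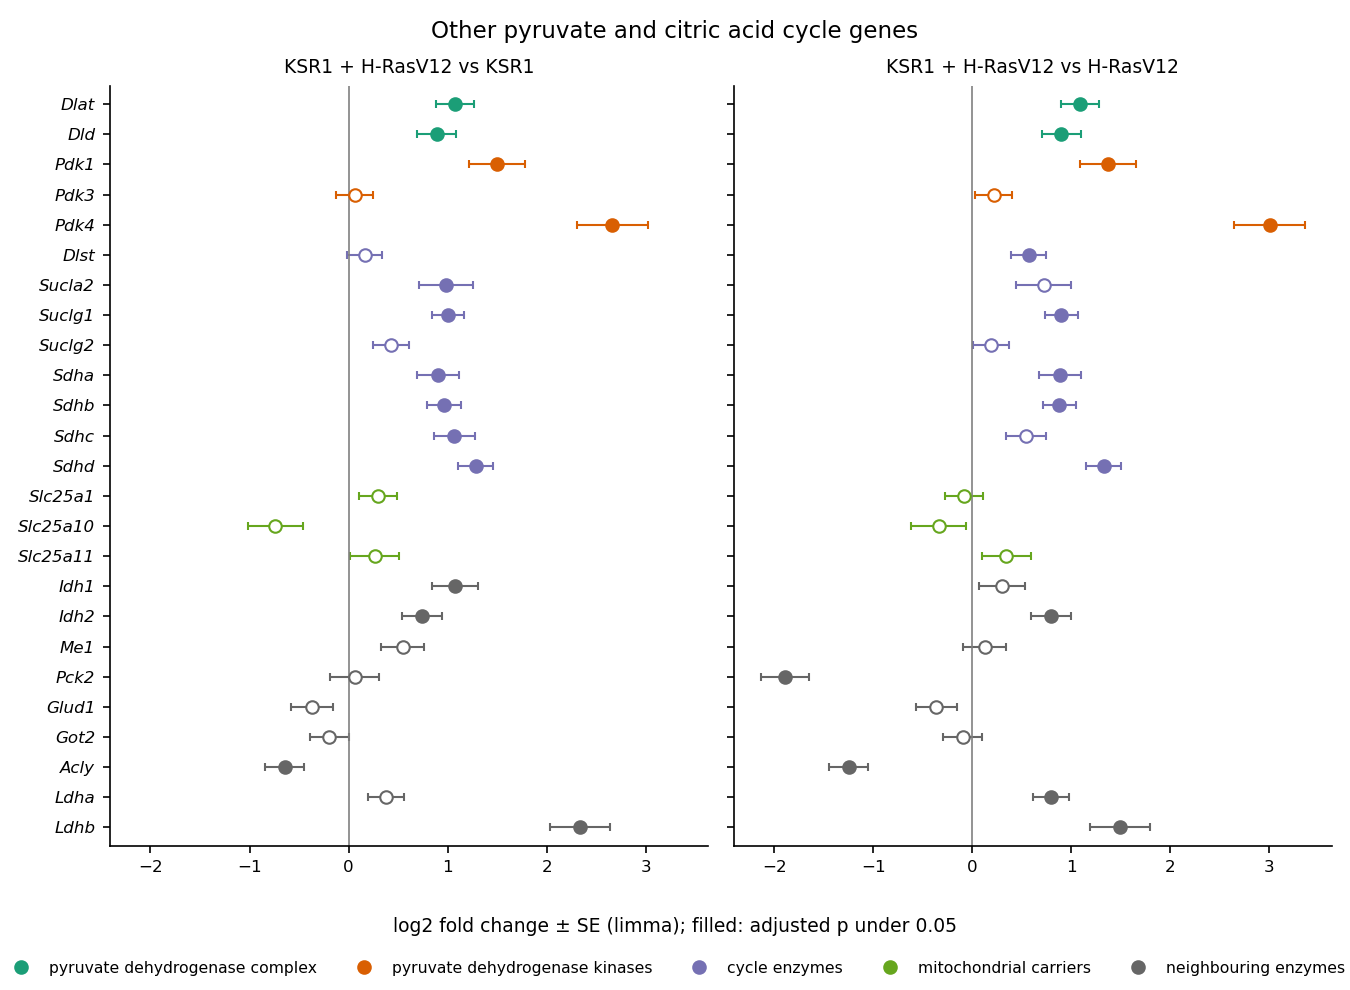
Log2 fold change ± SE (limma) of the other 25 tested pyruvate and citric acid cycle genes in the KSR1 plus H-RasV12 line against the KSR1 line (left) and the H-RasV12 line (right), coloured by role, with filled points at an adjusted p under 0.05. Pdk4 has the largest values, 2.66 and 3.00; the carriers have no filled point in either panel; Acly is called lower in both and Pck2 only in the right one.

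Enzymes at the borders of the cycle went in both directions. Ldhb, the lactate dehydrogenase subunit that is abundant in oxidative tissues such as heart, had 566, 1544.5 and 1004 in the KSR1 plus H-RasV12 line, against 248, 137 and 147 in the KSR1 line. It rose by 2.34 ± 0.31 (log2, SE; limma, adjusted p = 0.00013), and by 1.49 against the H-RasV12 line (0.00363). Ldha, the other lactate dehydrogenase subunit gene, rose by 0.79 against the H-RasV12 line (limma, adjusted p = 0.00759). It had 0.38 against the KSR1 line and 0.56 against the GFP line, not called (limma, adjusted p = 0.195 and 0.0517). Its KSR1 plus H-RasV12 arrays lay above all arrays of each other line. Idh1, the cytosolic NADP-dependent isocitrate dehydrogenase, rose by 1.07 against the KSR1 line (limma, adjusted p = 0.00605) but had 0.30 against the H-RasV12 line and 0.40 against the GFP line (0.488 and 0.318). Acly, which splits exported citrate for lipid synthesis, fell by 0.64 against the KSR1 line, by 1.25 against the H-RasV12 line and by 0.62 against the GFP line (limma, adjusted p = 0.0406, 0.00052 and 0.0449). The H-RasV12 line itself lay 0.62 above the GFP line, without overlap of arrays but not called (limma, adjusted p = 0.434). With 1 array left out, the call against the KSR1 line was lost in 8 of 12 cases (GFP replicates 2 and 3, any KSR1 array, any KSR1 plus H-RasV12 array; adjusted p = 0.0525 to 0.161), and that against the GFP line in 10 of 12, all but H-RasV12 replicates 2 and 3 (0.0503 to 0.139). Pck2 fell by 1.89 against the H-RasV12 line (limma, adjusted p = 0.000105) and had 0.062 against the KSR1 line (0.898), while its dimmer probe set was not called against the H-RasV12 line (0.116). Against the GFP line the brighter and the dimmer probe set were both called lower, at -1.73 and -0.84 (limma, adjusted p = 0.000185 and 0.0385).

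The pyruvate dehydrogenase kinases, which switch off the E1 component, rose in 2 of the 3 cases measured, against each of the other lines. The shares of all tested probe sets called higher were 8.16% against the KSR1 line, 7.1% against the H-RasV12 line and 7.71% against the GFP line. Pdk4 had 1706, 2019 and 2008 in the KSR1 plus H-RasV12 line, 288, 176 and 203 in the H-RasV12 line, 589, 251 and 145 in the KSR1 line, and 238, 201 and 319.7 in the GFP line. All 3 KSR1 plus H-RasV12 arrays were above every other array. Pdk4 rose by 2.66 ± 0.36 (log2, SE) against the KSR1 line and by 3.00 against the H-RasV12 line (limma, adjusted p = 0.000151 and 4.84e-05). Pdk1 had 683, 1369.7 and 888 in the KSR1 plus H-RasV12 line, against 430.3, 346 and 214 in the KSR1 line, and rose by 1.50 ± 0.28 (limma, adjusted p = 0.00212). Against the GFP line Pdk1 rose by 1.12 (limma, adjusted p = 0.0144). That call was lost without GFP replicate 3 or KSR1 plus H-RasV12 replicate 2 (limma, adjusted p = 0.0711 and 0.0755). Pdk3 had 1509, 1669 and 1553 in the KSR1 plus H-RasV12 line and 1418, 1454 and 1664 in the KSR1 line, which overlapped, with a log2 difference of 0.062 ± 0.19 (limma, adjusted p = 0.865). The interaction was called for Pdk4 (2.84, adjusted p = 0.00316) and Pdk1 (1.75, 0.0153) and not for Pdk3 (0.085, 0.908; limma). It was called with a positive sign in 4.16% of all tested probe sets. Pdk2 and the phosphatase genes Pdp1, Pdp2 and Pdpr were not analysed here.

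Regulators known to act on genes of mitochondrial oxidation were read beside them. Ppargc1a, the coactivator PGC-1alpha, was below the filter on all arrays, with 55.3, 155.9 and 115 in the KSR1 plus H-RasV12 line, 27.3, 12.9 and 5.90 in the H-RasV12 line, 8.81, 29.2 and 14.2 in the KSR1 line, and 15.7, 16.0 and 11.8 in the GFP line. No other array reached those of the KSR1 plus H-RasV12 line, and a fit without the filter gave a log2 fold change of 1.66 ± 0.31 (SE) against the KSR1 line (limma, adjusted p = 0.00467). Esrra, the estrogen-related receptor alpha, had 2 tested probe sets. The dimmer one passed the filter only through the KSR1 plus H-RasV12 arrays, where it had to be high to be tested, so its values are a description. It had 372, 386 and 488 in the KSR1 plus H-RasV12 line and 128, 84.6 and 173 in the KSR1 line, a log2 difference of 1.57. The brighter one, above the filter on all 12 arrays, had 0.89 against the KSR1 line (limma, adjusted p = 0.0598, not called) and rose by 1.61 against the H-RasV12 line (0.00173). The tested probe set of Gabpa, an ETS family subunit, had -0.23 against the KSR1 line (limma, adjusted p = 0.621). Tfam, the mitochondrial transcription factor A, was below the filter, with means of 40.6 in the KSR1 plus H-RasV12 line and 37.3 in the KSR1 line. Ppargc1b, Esrrg and Nrf1 were not analysed here.

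**Figure D5:**
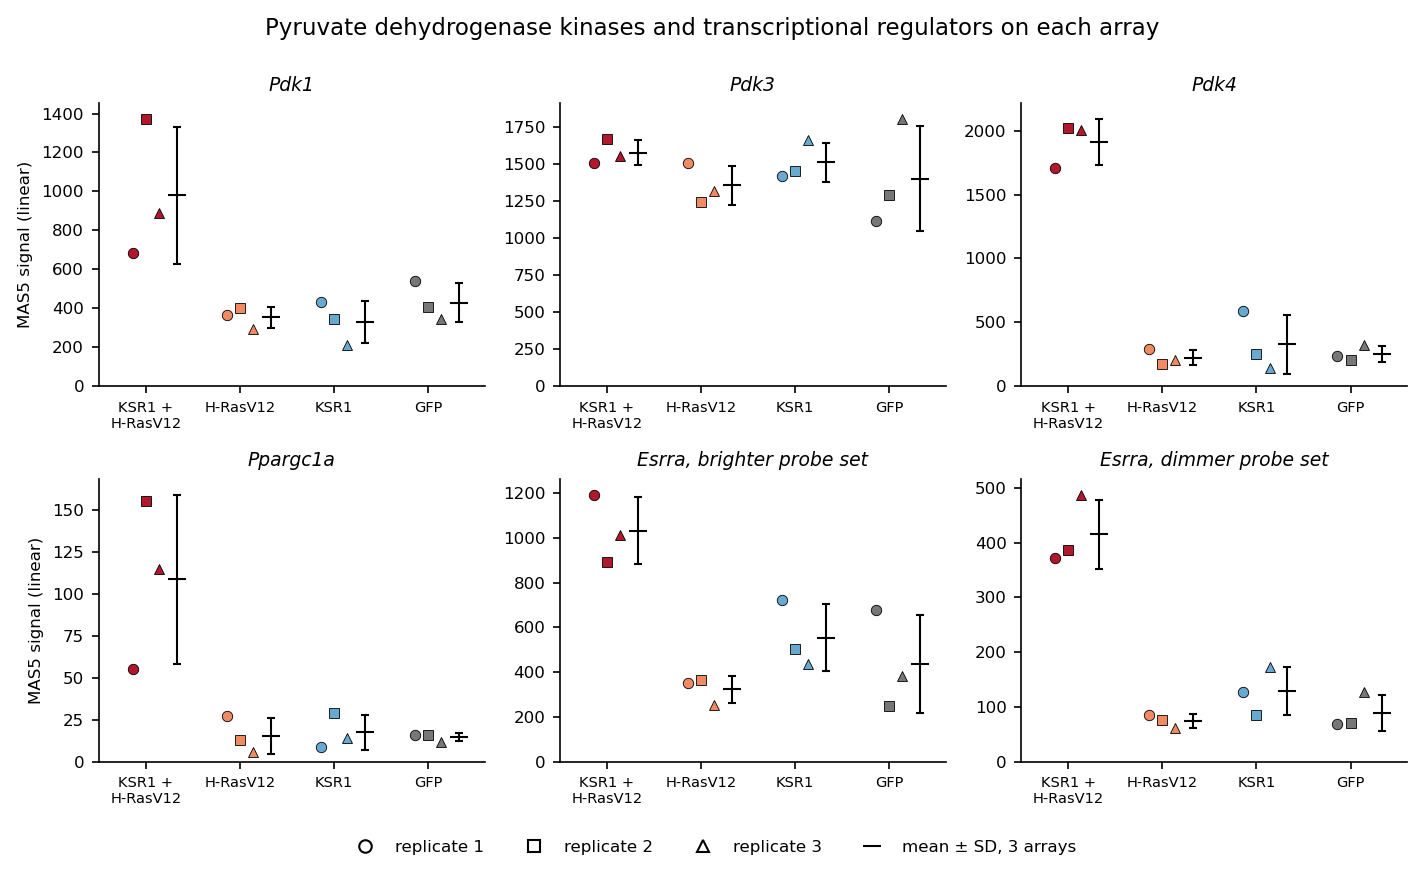
MAS5 signal (linear scale, from 0) of the pyruvate dehydrogenase kinases Pdk1, Pdk3 and Pdk4, of Ppargc1a and of the 2 Esrra probe sets on each array, with mean ± SD of 3 arrays per line. All 3 KSR1 plus H-RasV12 arrays are the highest for Pdk1, Pdk4, Ppargc1a and both Esrra probe sets, and those of Pdk3 overlap the KSR1 and GFP arrays; Ppargc1a reaches 155.9 and stays under the filter of 181.4.

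The 6 other genes whose log2 values followed the mean of the 9 most closely over the 12 arrays were Sdhd (r = 0.980), Ndufs1, a core subunit of respiratory complex I (0.977), Cd68, a lysosomal membrane glycoprotein used as a macrophage marker (0.974), Atp6v1c1, a subunit of the vacuolar proton pump (0.971), Pfkp, a phosphofructokinase of glycolysis (0.970), and Ero1a, an oxidoreductase of the endoplasmic reticulum (0.967). They were picked for this likeness, which a gene that is high in the KSR1 plus H-RasV12 line alone will have, so their values are a description. The signals of Ndufs1 were 2701, 3064 and 3112 in the KSR1 plus H-RasV12 line and 1227, 1365 and 1478 in the KSR1 line. Those of Cd68 were 3559, 5184 and 3293 in the KSR1 plus H-RasV12 line and 162, 146 and 142 in the KSR1 line, a 22.9-fold difference on the log2(signal + 23) scale.

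Markers of the cell type differed between the lines as well. The summed signal of the 7 fibroblast markers was 9261 to 17216 in the KSR1 plus H-RasV12 line, 30332 to 42381 in the H-RasV12 line, 20725 to 24514 in the KSR1 line and 31514 to 42649 in the GFP line. The KSR1 plus H-RasV12 arrays were below all others for this sum, but its members did not move alike. Col1a1, a collagen chain and on average the largest part of the sum in the H-RasV12, KSR1 and GFP lines, had 4299, 1921 and 178 in the KSR1 plus H-RasV12 line, against 7549.8, 9357 and 8475 in the KSR1 line. Pdgfrb had 59.6, 32.2 and 7.06 in the KSR1 plus H-RasV12 line and, like Col1a1, was there below every array of the other lines. Col1a2, the partner chain, had 8295, 8442 and 6001 in the KSR1 plus H-RasV12 line, all above the 5836, 5379 and 5636 of the KSR1 line. These Col1a2 values were below every H-RasV12 array (10651 to 12417) and every GFP array (11841 to 16106). Pdgfra and Dcn in the KSR1 plus H-RasV12 line overlapped the GFP line, at 1191 to 1762 against 1036 to 1711 for Pdgfra and at 1405 to 3305 against 2546 to 3223 for Dcn. Both were below every H-RasV12 array, and Dcn was also below every KSR1 array. Of 7 leukocyte markers 2 were tested, Cd14 and Laptm5, and the summed signal of all 7, 1843 to 2020 in the KSR1 plus H-RasV12 line overlapped the 1382 to 2272 of the GFP line, with 1563 to 1859 in the H-RasV12 line and 2209 to 4085 in the KSR1 line. Cd14, a receptor of monocytes and macrophages, was above the filter on all 12 arrays, with a mean of 1441 in the KSR1 plus H-RasV12 line, 1200 in the H-RasV12 line, 2250.4 in the KSR1 line and 1126 in the GFP line. Of the same list, Ptprc, Itgam and Adgre1, which define leukocytes and macrophages, did not exceed 27.4, 47.9 and 27.8 on any array. Csf1r of that list had 567 on KSR1 replicate 1 and 541 on GFP replicate 1, and at most 168 on any other array. Laptm5 ran from 143 to 377 and was above the filter on 11 arrays. Cd68, which is not on the list, was high in the KSR1 plus H-RasV12 line alone, as given above. As for other cell types, Epcam, Krt8 and Cdh5, which mark epithelial and endothelial cells, did not exceed 31.4, 32.3 and 25.3. Other markers of these cells were higher. The epithelial Cdh1 was above the filter on all 12 arrays, at 411 to 994, and the endothelial Pecam1 and Kdr reached 232.5 and 252.7. Of the striated muscle markers, Actc1 was above the filter on all 12 arrays, at 427 to 2609, and Myog on 7, reaching 257. The part of the differences in Col1a1, Cd14 and Cd68 in the rise of the 7 genes was not tested, and in RNA of whole cultures fewer cells of a type and less RNA per cell cannot be told apart.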

How the data were processed

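RNA of 4 mouse fibroblast lines was measured on 12 Affymetrix arrays, 3 per line, grouped by the labels. The deposited intensities are MAS5 signals on a linear scale, per the submitters' processing notes; the MAS5 version is not given in the sources used here, and all arrays have the same trimmed mean. Of 12488 probe sets, 66 controls were left out; 10833 of the rest have 1 gene symbol in the platform annotation, 396 several and 1193 none, and 10817 were found in the RefSeq table (GRCm38.p6). Probe sets with several symbols were not named.

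The 6897 probe sets with signals over 181.4, the overall median, on 3 or more arrays were tested with limma 3.58.1 in R 4.3.3 (lmFit, eBayes with intensity trend) on log2(signal + 23), the pseudocount being the 20th percentile of all values; 4 group means left 8 residual degrees of freedom. Benjamini-Hochberg adjustment ran over all tested probe sets, with calls at 0.05. A log2 fold change on this scale understates the change of dim probe sets. No files of array scans or detection calls were used here, so precision rests on the 3 arrays per line. The procedure was tested on simulated data. Same-numbered arrays of different lines deviated together (r over 0.1) in 13 of 18 pairs, with a median r of 0.20 against -0.13 over 36 pairs of different numbers. They did so in all 3 pairs of the KSR1 line with each other line, so a batch shared by a number is possible; the labels name none, and the fit reported has no replicate block.

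The genes named are the 9 genes, the 8 called genes of largest change in the KSR1 plus H-RasV12 line against the KSR1 line among 43 other pyruvate and cycle genes, the pyruvate dehydrogenase kinases, listed regulators, Ksr1 and the 6 genes most like the 9 in pattern. Dld, Dlst, Sdha, Sucla2, Suclg2, Idh3b, Ldha, Acly, Pck2, Slc25a10 and single markers were named after their values were seen. The 9 genes and all lists were chosen with earlier results of these data known. Alternatives were the pseudocount, the filter, median centring, quantile normalization, no trend, a replicate block, a fit of only the groups compared, each array left out, and replicates 2 and 3 alone. Counting the 43 genes under these was added after the data were seen.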

Additional observations from a re-analysis of the deposited data

Results flagged for a closer look

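For 3 of the 9 genes the difference between the lines with and without H-RasV12 was not the same with KSR1 as without it. This was limma's test of the difference itself over 3 arrays per line. Each condition is 1 cell line, so an effect of H-RasV12 or KSR1 cannot be told apart from other differences between the lines. The interaction was called in 7.7% of all tested probe sets, and with a positive sign in 4.16%. For Pdhb, the beta subunit of pyruvate dehydrogenase E1, the KSR1 plus H-RasV12 line was 1.61 (log2) above the KSR1 line and the H-RasV12 line stood at -0.012 against the GFP line, an interaction of 1.62 (adjusted p = 0.00302). For Idh3a, the catalytic isocitrate dehydrogenase subunit, the same values were 1.20 and -0.082, with an interaction of 1.28 (adjusted p = 0.0295). For Mdh2, the mitochondrial malate dehydrogenase, they were 0.98 and -0.0088, with an interaction of 0.99 (adjusted p = 0.0242). With 1 array left out, Pdhb kept this call in all 12 cases, while Idh3a lost it in 10 of 12 and Mdh2 in 8 of 12. Without the filter on low values, only Pdhb was called among the 9.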

How the results depend on the processing

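Over 22 alternatives, no called difference of the 7 genes turned its direction, and Pdhb, Idh3a and Mdh2 kept their calls in all 3 comparisons of the KSR1 plus H-RasV12 line. Median centring shifted arrays by -0.23 to 0.15 (log2). The count of the 9 genes called stayed at 6 to 7 against the KSR1 line, 5 to 7 against the H-RasV12 line and 6 to 7 against the GFP line. In the interaction it was 1 without the filter, 6 with the replicate block and 1 to 4 when 1 array was left out. The replicate block changed no call of the 9 genes in the 5 comparisons between lines. With the stricter filter on all 12 arrays, which tests 4882 probe sets, 619, 613 and 637 were called for the KSR1 plus H-RasV12 line against the KSR1, H-RasV12 and GFP lines, 2 for H-RasV12 against GFP, 411 for KSR1 against GFP and 286 in the interaction (1040, 1022, 1079, 5, 813 and 531 in the fit reported). H-RasV12 against GFP gave 8 without the filter, 10 with the replicate block, 2 with only these groups fitted, 53 with replicates 2 and 3 alone and 1 to 23 when 1 array was left out; the cause was not tested. When 1 array was left out, KSR1 against GFP gave 482 to 934 calls and the interaction 339 to 679.

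Directions that turned were all of differences that were not called. For Mdh1 in the KSR1 plus H-RasV12 line, median centring and quantile normalization gave 0.053 and 0.019 against the KSR1 line and 0.023 and 0.0034 against the H-RasV12 line; leaving out 1 array gave -0.26 to 0.065, -0.22 to 0.071 and -0.045 to 0.24 against the KSR1, H-RasV12 and GFP lines. In the H-RasV12 line against the GFP line, leaving out 1 array gave -0.26 to 0.13 for Pdha1, -0.073 to 0.077 for Pdhb, -0.0012 to 0.12 for Cs, -0.14 to 0.0064 for Idh3g, -0.0068 to 0.35 for Fh1 and -0.13 to 0.074 for Mdh2; replicates 2 and 3 alone gave 0.026 for Idh3g and -0.016 for Fh1, and quantile normalization 0.045 for Mdh2. In the KSR1 line against the GFP line, leaving out 1 array gave -0.14 to 0.17 for Pdha1, -0.12 to 0.036 for Idh3a, -0.050 to 0.26 for Ogdh, -0.33 to 0.025 for Fh1 and -0.013 to 0.19 for Mdh2; quantile normalization gave 0.022 for Pdha1, and replicates 2 and 3 alone 0.038 for Idh3a. Among the other 25 genes, 10 to 14 were called higher against the KSR1 line, 9 to 13 against the H-RasV12 line and 7 to 14 against the GFP line. Acly, the single gene called lower against the KSR1 line, lost its calls against the KSR1 and GFP lines without the filter, with median centring, without the trend, with only these groups fitted and with replicates 2 and 3 alone.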
